A study of Arabis alpina with 12 samples.

Results

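Runs of neighbouring genes that share an organ preference were taken from 12 RNA-seq libraries of Arabis alpina, a perennial in the family of Arabidopsis. The runs were chosen on measured values. For each gene, R was the log2 ratio of its mean CPM (read counts scaled to 1000000 per library by the library sum) in wild-type (WT) apex over WT leaf, with 0.5 CPM added to each mean. A run was 3 or more consecutive genes in genome order, with gaps of 10 kb or less, in which every gene had R of 1.5 or more (an apex run) or of -1.5 or less (a leaf run). Runs with over 1 gene at an absolute R of 4 or more were dropped. The rule gave 36 runs with 115 genes, out of 26047 genes with 10 or more reads in total and 35465 genes in the tables. There were 5 apex runs with 16 genes and 31 leaf runs with 99 genes, numbered below in genome order within each direction. Since WT values chose the members, WT apex and leaf levels are given as a description with no test, and the organ difference was tested in the mutant libraries, which the rule did not use.

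The plants were of the cultivar Pajares, either wild type or carrying the pep1-1 mutation, and were grown on soil in long days at 22 °C. PEP1 is the counterpart in Arabis alpina of the Arabidopsis floral repressor FLC. Shoot apices and leaves of both genotypes were sampled at zeitgeber time 8, with 3 libraries for each of the 4 combinations. The labels give an age of 2 weeks and the design text one of 10 days. All mutant libraries carry 1 allele, the titles of those libraries read PEP1, and every genotype direction here rests on the genotype label. The sources do not say whether replicates came from separate plants, so the p-values given here reflect spread among libraries that may be technical. The files do not pair identifiers with gene names, so the organ labels were not checked against markers, the targeted gene was not looked up, and no function is given for any run gene.

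Genes that lie side by side in a plant genome can be copies made by tandem duplication, members of one metabolic gene cluster, or unrelated genes that share a stretch of open chromatin. A shoot apex holds the meristem and young primordia, whose cells divide, while expanded leaf tissue is devoted largely to photosynthesis. A difference between organs in bulk RNA counts both how many cells of a type each organ holds and how much RNA each cell makes, and these cannot be told apart here.

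The libraries held 19746210 to 43695184 counted reads. The gene with most reads took 4.29% to 4.80% of the reads in apex libraries and 0.792% to 1.205% in leaf libraries. The organs also differed in composition: the median R of all 26047 genes in WT was -0.43 by library sum and -0.02 with TMM factors, a shift of 0.41 on the log2 scale that moves every R upwards. By library sum 13.9% of the runs were apex runs. With TMM factors the same rule gave 23 runs, 16 apex and 7 leaf (69.6% apex), and 40 of their 76 genes were among the 115 described here. The excess of leaf runs over apex runs therefore depends on the scaling and reverses with it. Of the 115 members, 69 stayed past the limit in WT with TMM factors, which were all 16 apex members but 53 of 99 leaf members, and 9 of the 36 runs stayed whole, 5 apex and 4 leaf.

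Most runs were short: 31 had 3 genes, 3 had 4 genes and 2 had 5 genes. A run spanned 3659 to 31133 bp, with a median of 13093 bp. The 79 gaps inside runs ran from 1 to 8937 bp, and no pair of run neighbours overlapped. In 3 runs a gene with under 10 reads, passed over by the rule, lay between members. Chromosome 8 held 10 of the 36 runs and 28.7% of the members, against 17.5% of the genes with 10 or more reads. Chromosome 7 held 1 run, with 2.61% of the members against 8.93% of the genes. Both runs that the rule dropped were also on chromosome 7, and both were leaf runs. The first had 5 genes from 4369257 to 4378078, with 4 at an absolute R of 4 or more, and the second had 4 genes from 4479182 to 4489651, with 3 such genes.

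A flanking gene within 10 kb lies below the limit in WT by construction, since it would otherwise have joined the run. Next to the 5 apex runs there were 9 such genes, with a median R in WT of -0.49, and 3 of them had the sign of the run. Next to the 31 leaf runs there were 55, with a median of -0.55, and 46 of them had the sign of the run. By library sum the median R of all 26047 genes in WT was -0.43, so most genes had the sign of a leaf run. The flanks of both kinds of run lay near that median, and nothing is read from these counts. The leaf limit was crossed by small margins in places. The member closest to it, in leaf run 19 on chromosome 5 (20231975 to 20234529), had R of -1.501, and the next, in leaf run 4 on chromosome 2 (25759851 to 25762784), had -1.504. Just outside were the flank of leaf run 26 on chromosome 8 (29365916 to 29367950) at -1.46 and that of leaf run 6 on chromosome 2 (28141939 to 28143903) at -1.38. At the apex limit, the members closest to it were in apex run 4 (38282946 to 38284234) with 1.504 and in apex run 5 (22266 to 23904) with 1.78. The nearest flanks lay further off, at 1.099 beside apex run 1 (2193795 to 2197059) and at 0.15 beside apex run 3 (466582 to 468537).

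In pep1-1 the organ preference of the run genes was found again almost throughout. edgeR's quasi-likelihood test of pep1-1 apex against pep1-1 leaf, with 6 libraries and Benjamini-Hochberg adjustment over 23003 genes, called 113 of the 114 members it tested in the direction of their run and none in the other direction. Among apex members 15 of 15 tested were called higher in apex, where 31.9% of all genes tested were. Among leaf members 98 of 99 were called higher in leaf, against 34.1% of all genes tested. Genes past the same limits in WT but outside any run were called as often. For apex these were 1031 of 1031 tested, and for leaf 2096 of 2112. Without the filter on low counts all 115 members were tested and 113 were called, as were 15495 of 28557 genes in either direction. The 2 members without a call were the second gene of apex run 1, which the filter removed, and the first gene of leaf run 20.

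The fitted log2 fold changes, apex over leaf with TMM factors, had a median of 3.36 in apex members and of -1.98 in leaf members, against -0.04 for all genes tested. These medians stayed the same to 2 decimals with genes at 0 in 1 organ set at the bound that 3 reads over the group allow. Apex members with over 3 reads in pep1-1 leaf ran from 2.101 to 5.81, and leaf members with over 3 reads in pep1-1 apex ran from -0.39 to -5.61. Measured as in the rule, R in pep1-1 was still 1.5 or more in 14 of 16 apex members, against 3.82% of all genes, and -1.5 or less in 92 of 99 leaf members, against 10.1%. All genes of the run stayed past the limit in 28 of 36 runs, 3 apex and 25 leaf. With TMM factors this held for 11 runs. By library sum, the 3 pep1-1 apex libraries all lay above the 3 leaf libraries in 15 of 16 apex members, against 16.6% of all genes. The 3 leaf libraries all lay above the apex libraries in 99 of 99 leaf members, but also in 58.6% of all genes.

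Genes past the same limits in WT but outside any run gave similar shares in pep1-1. Of 1038 such apex genes 81.5% stayed past the limit in pep1-1, against 87.5% of the apex members. Of 2113 such leaf genes 92.9% did, the same as among leaf members. The shares inside runs were thus close to those of preferred genes elsewhere. Applied to the pep1-1 libraries alone, the rule gave 45 runs with 145 genes, 8 apex and 37 leaf. Of these, 27 shared a gene with a WT run, which were 60% of the pep1-1 runs and 75% of the WT runs, and the 86 genes in both sets were 74.8% of the WT members and 59.3% of the pep1-1 run genes.

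**Figure D1:**
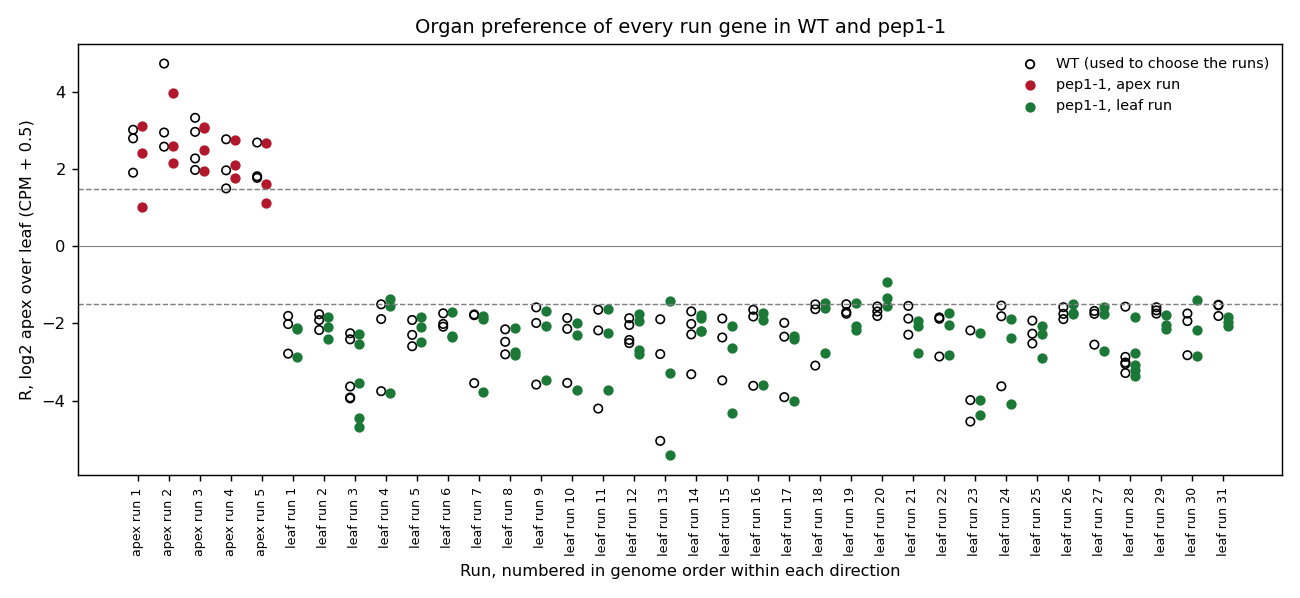
R (log2 apex over leaf of mean CPM + 0.5, by library sum) for every run gene, in WT (open circles, which chose the runs) and in pep1-1 (filled circles, 3 libraries per organ), with dashed lines at 1.5 and -1.5. Of the 115 genes 106 stay past the line of their run in pep1-1, and the lowest, in leaf run 20, has R of -0.92.

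The apex runs are described gene by gene, with CPM by library in the order of replicates 1, 2 and 3. Apex run 2, on chromosome 5 from 2956813 to 2964415, held the apex member with the largest R in WT, at 4.74. This first gene, Aa_G264280 (2956813 to 2958077), had 160, 121 and 181 CPM in WT apex and 4.64, 6.18 and 5.01 in WT leaf. In pep1-1 it had 67.2, 74.3 and 150 CPM in apex and 5.29, 7.03 and 4.67 in leaf. The apex libraries of both genotypes lay far above all leaf libraries, and the pep1-1 fold change was 4.68 ± 0.34 on the log2 scale (SE, edgeR adjusted p = 5.77e-06). The second gene (2959933 to 2961381) had 1.87, 2.73 and 5.38 CPM in pep1-1 apex and 0.303, 0.445 and 0.311 in leaf. The third (2963163 to 2964415) had 14.8, 18.8 and 34.8 CPM in pep1-1 apex and 3.53, 3.51 and 2.87 in leaf. In all 3 genes replicate 3 of pep1-1 apex was the highest of its group, and the spans of the genes differed by no more than 1.16 times.

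Apex run 5 lay on an unplaced scaffold, scaff_54367_1, from 20407 to 25971, with gaps of 164 and 132 bp between its 3 genes. The first gene, Aa_G201860 (20407 to 22101), had 1.99, 2.51 and 4.05 CPM in WT apex and 0.0258, 0 and 0.0272 in WT leaf. The pep1-1 libraries gave 1.41, 3.13 and 4.90 CPM in apex and 0.138, 0.0445 and 0.0346 in leaf, so that its groups did not overlap. Its fold change in pep1-1, 5.81 ± 0.65 on the log2 scale (SE, edgeR adjusted p = 7.02e-05), was the largest among apex members. The second gene (22266 to 23904) had 1.97, 2.46 and 2.79 CPM in pep1-1 apex and 0.827, 0.667 and 0.968 in leaf, and its R in pep1-1 was 1.14, below the limit. The third (24037 to 25971) had 6.87, 5.41 and 8.47 CPM in pep1-1 apex and 1.54, 2.36 and 1.83 in leaf. Both passed the test in pep1-1, with edgeR adjusted p of 6.77e-05 and 1.87e-05. As in apex run 2 the spans were alike, with a ratio of longest to shortest of 1.18.

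Apex run 3, on chromosome 8 from 468962 to 484997, was the only apex run of 4 genes. The first gene (468962 to 470238) was an abundant one, with 2900, 2851 and 3275 CPM in WT apex and 773, 769 and 742 in WT leaf. Its levels in pep1-1 were 2707, 2858 and 3645 CPM in apex and 727, 770 and 874 in leaf. The levels in apex were therefore several times those in leaf in both genotypes, with a pep1-1 fold change of 2.52 ± 0.16 on the log2 scale (SE, edgeR adjusted p = 2.7e-06). The other members had few reads in leaf. The second gene (476133 to 478337) had 13.1, 3.78 and 5.77 CPM in pep1-1 apex and 0.689, 0.0445 and 0.622 in leaf. The third (479839 to 482127) had 9.09, 2.91 and 4.23 CPM in apex and 0.937, 0.311 and 0.380 in leaf. These genes were both highest in replicate 1 in pep1-1 apex. The fourth gene (482723 to 484997) was steadier, with 7.59, 6.47 and 8.12 CPM in pep1-1 apex and 0.386, 0.400 and 0.484 in leaf, and a fold change of 4.68 ± 0.19 on the log2 scale (SE, edgeR adjusted p = 5.45e-07).

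Apex run 4, on chromosome 8 from 38279809 to 38291437, held the apex member with the smallest R in WT. The first gene (38279809 to 38282486) had 110, 125 and 160 CPM in pep1-1 apex and 29.7, 30.4 and 29.5 in leaf. The second (38282946 to 38284234) had 16.2, 16.1 and 16.4 CPM in WT apex and 5.28, 4.44 and 6.49 in WT leaf. In pep1-1 it had 23.3, 14.9 and 21.1 CPM in apex and 5.84, 5.65 and 4.94 in leaf. This gene was at the limit in WT with R of 1.504 and had R of 1.76 in pep1-1. The third gene (38286199 to 38291437) had 90.9, 102 and 165 CPM in pep1-1 apex and 19.1, 13.7 and 19.0 in leaf. All 3 genes passed the test in pep1-1, with edgeR adjusted p from 1.15e-06 to 7.08e-06. The run no longer met the rule when WT apex replicate 3, WT leaf replicate 1 or WT leaf replicate 2 was left out.

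Apex run 1, on chromosome 1 from 2198345 to 2207515, rested on 1 library. The second gene (2201580 to 2204133) had 4.31, 0.0306 and 0 CPM in WT apex and 0.0515, 0 and 0 in WT leaf. The pep1-1 libraries gave 0.687, 0.852 and 0 CPM in apex and 0 in each of the 3 leaf libraries. WT apex replicate 1 alone carried its WT value, the run was lost without that library, and the gene had only 204 reads over all 12 libraries. Over the pep1-1 groups it was at least 14.2-fold higher in apex, with leaf set at 3 reads over the group, but 1 of 3 apex libraries was also at 0. The filter on low counts removed the gene from the edgeR test, and without the filter it was tested and not called. It was called in the edgeR fits that left out pep1-1 apex replicate 3, pep1-1 leaf replicate 2 or pep1-1 leaf replicate 3. The genes on either side differed between organs in every library. The first (2198345 to 2200065) had 10.9, 8.82 and 15 CPM in pep1-1 apex and 1.21, 0.534 and 0.899 in leaf, and the third (2204138 to 2207515) had 57.5, 51.0 and 64.4 in apex and 10.0, 9.38 and 11.5 in leaf. Both passed the test, with edgeR adjusted p of 4.55e-06 and 5.82e-07.

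**Figure D2:**
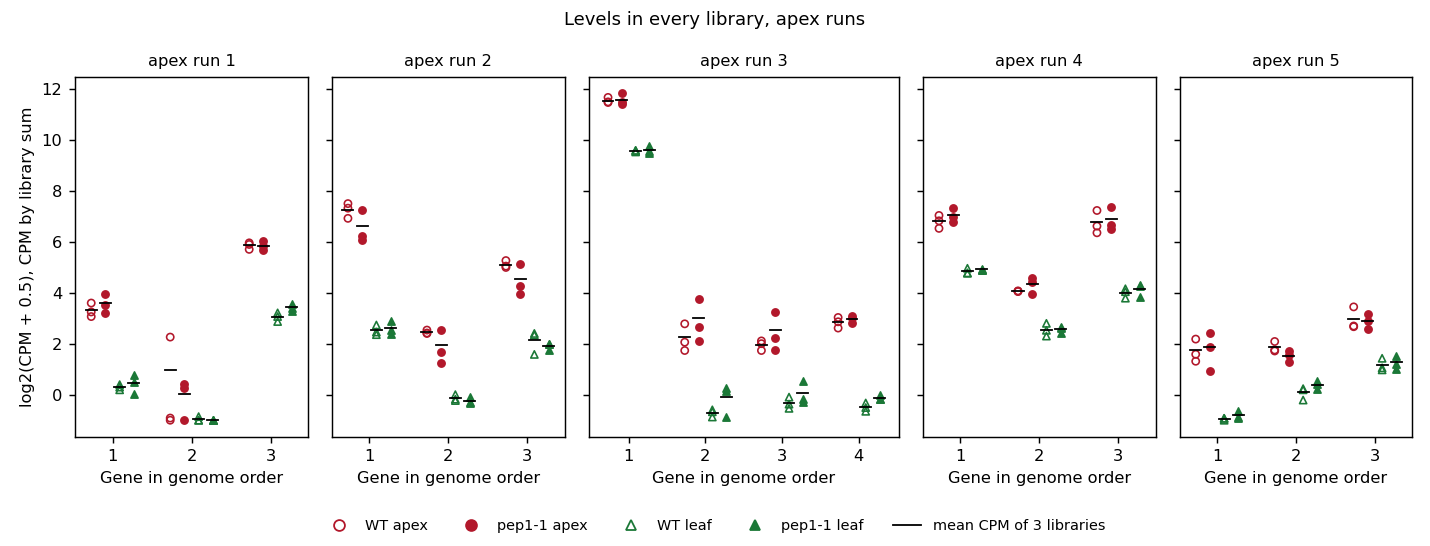
Levels of the 16 genes of the 5 apex runs in every library, as log2(CPM + 0.5) by library sum, with red circles for apex, green triangles for leaf, open symbols for WT, filled symbols for pep1-1 and bars at the mean CPM of 3 libraries. Apex libraries lie above leaf libraries except for the second gene of apex run 1, which is raised in 1 WT apex library.

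Of the 31 leaf runs, the 5 with most genes are described in the same way. Leaf run 3, on chromosome 1 from 19674025 to 19699325, had 5 genes with R in WT from -2.25 to -3.94. The first gene (19674025 to 19676359) had 5.32, 5.29 and 3.19 CPM in WT apex and 76.7, 76.6 and 76.9 in WT leaf. Its levels in pep1-1 were 2.37, 2.08 and 0.870 CPM in apex and 52.4, 44.8 and 50.4 in leaf. Leaf libraries of each genotype lay above all apex libraries, and pep1-1 lay below WT within each organ. The second gene, Aa_G126730 (19680058 to 19680525), had 4.79, 3.34 and 5.94 CPM in WT leaf. In pep1-1 it had 2.92, 2.58 and 2.80 CPM in leaf but 0.187, 0 and 0 in apex, with a fold change of -5.08 ± 0.66 on the log2 scale (SE, edgeR adjusted p = 0.000167). The pep1-1 apex value came from 1 library.

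The third gene of leaf run 3 (19684125 to 19688530) had 1.99, 3.58 and 2.33 CPM in WT apex and 34.4, 39.6 and 41.4 in WT leaf. The pep1-1 libraries gave 1.22, 1.53 and 1.67 CPM in apex and 22.5, 22.8 and 21.7 in leaf. Neither the organs nor the genotypes overlapped. The fourth gene (19690875 to 19692589) showed the same order, with 4.69, 4.53 and 2.63 CPM in WT apex, 58.6, 67.9 and 77.6 in WT leaf, 2.03, 1.18 and 0.687 in pep1-1 apex and 47.2, 42.3 and 46.7 in pep1-1 leaf. The fifth (19697325 to 19699325) was at 0 in all WT apex libraries and had 1.08, 1.88 and 2.70 CPM in WT leaf. Its levels in pep1-1 were 0.0312, 0.1 and 0.0458 CPM in apex and 1.90, 2.67 and 2.04 in leaf, so that here WT and pep1-1 leaf overlapped.

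Leaf run 28, on chromosome 8 from 34386981 to 34418113, was the longest run. The first gene (34386981 to 34391505) had 37.5, 49.2 and 64.4 CPM in WT apex and 86.4, 208 and 156 in WT leaf. The second (34397696 to 34404497) had 9.45, 13.1 and 15.2 CPM in WT apex and 57.3, 161 and 96.8 in WT leaf. The third (34406217 to 34407041) had 13.3, 42.7 and 25.1 CPM in WT leaf. In every one of the 5 genes WT leaf replicate 1 was the lowest and replicate 2 the highest of that group. The fourth gene (34407466 to 34411090) had 137, 334 and 225 CPM in WT leaf and, in pep1-1, 21.4, 27.7 and 38.3 in apex and 278, 300 and 239 in leaf. The fifth (34416886 to 34418113) had 4.89, 10.5 and 6.81 CPM in WT leaf and, in pep1-1, 0.0312, 0.501 and 0.435 in apex and 6.81, 7.12 and 5.56 in leaf. The pep1-1 leaf libraries were closer to each other than the WT leaf libraries in these genes. All 5 passed the organ test in pep1-1, with fold changes from -1.27 to -3.68 on the log2 scale and edgeR adjusted p of 0.000311 or less. The run no longer met the rule without WT leaf replicate 2 or without WT apex replicate 1.

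Leaf run 12, on chromosome 3 from 27157590 to 27183035, had 4 genes with moderate organ differences. The second gene (27160934 to 27165805) had 4.12, 2.76 and 3.04 CPM in pep1-1 apex and 25.3, 27.5 and 24.2 in leaf. The fourth (27178216 to 27183035) had 5.46, 5.31 and 5.72 CPM in pep1-1 apex and 20.6, 21.3 and 17.2 in leaf. Their pep1-1 fold changes were -2.40 ± 0.15 and -1.27 ± 0.11 on the log2 scale (SE, edgeR adjusted p = 2.44e-06 and 1.69e-05). The first gene (27157590 to 27160719) and the third (27168639 to 27173875) lay in the same range, with R in pep1-1 of -1.95 and -2.70.

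Leaf run 14, on chromosome 4 from 7385116 to 7390918, was compact, with 4 genes in 5803 bp. The first gene (7385116 to 7385520) had 1.69, 1.19 and 0.608 CPM in WT apex and 13.4, 16.6 and 18.3 in WT leaf. In pep1-1 it had 1.53, 4.59 and 3.20 CPM in apex and 9.73, 20.2 and 18.1 in leaf. Organ groups did not overlap in either genotype, and R went from -3.32 in WT to -2.19 in pep1-1. The second gene, Aa_G513990 (7387126 to 7387420), had 1.60, 2.01 and 2.78 CPM in WT leaf and, in pep1-1, 0, 0.0752 and 0 in apex and 1.46, 2.62 and 1.62 in leaf. Those pep1-1 values came from 3 reads in apex and 159 in leaf, a 69.9-fold difference with an exact 95% counting interval of 23.5 to 342. The third gene (7387985 to 7388339) had 0, 0.0752 and 0.0687 CPM in pep1-1 apex and 1.1, 2.05 and 1.28 in leaf. Both passed the test, with edgeR adjusted p of 0.00011 and 0.000175, though both had few reads. The fourth gene (7389555 to 7390918) had 1.53, 1.48 and 1.69 CPM in pep1-1 apex and 5.98, 7.56 and 6.22 in leaf, and all 4 genes were highest in replicate 2 of pep1-1 leaf.

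Leaf run 23, the run on chromosome 7 (21189019 to 21205273), had the largest median organ difference of any run, with a median R of -3.99 in both WT and pep1-1. The first gene (21189019 to 21194573) had 0.250, 0.501 and 0.206 CPM in pep1-1 apex and 2.89, 4.67 and 2.63 in leaf. The second (21201090 to 21203423) had 0.562, 0.376 and 0.137 CPM in apex and 12.7, 15.7 and 11.2 in leaf. The third (21203473 to 21205273) had 0.406, 0.752 and 0.435 CPM in apex and 18.7, 24.8 and 19.3 in leaf. Replicate 2 was the highest pep1-1 leaf library for all of them, and WT leaf was highest in replicate 3 for all of them. Their fold changes in pep1-1 were -2.81 ± 0.36, -4.69 ± 0.32 and -4.71 ± 0.22 on the log2 scale (SE, edgeR adjusted p = 0.000167, 4.05e-06 and 7.23e-07).

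Leaf run 20, on chromosome 6 from 2412451 to 2426075, had the weakest preference in pep1-1 and is named because its first gene missed the call. This gene (2412451 to 2416485) had 8.11, 14.4 and 5.52 CPM in WT apex and 23.1, 17.0 and 45.5 in WT leaf. The pep1-1 libraries gave 6.21, 10.1 and 6.34 CPM in apex and 13.2, 18.3 and 12.7 in leaf. By library sum the organs did not overlap in pep1-1, with leaf above apex as in 58.6% of all genes. The fold change, with TMM factors, was -0.39 ± 0.21 on the log2 scale (SE, edgeR adjusted p = 0.136). R in pep1-1 was -0.92 by library sum and -0.37 with TMM factors. WT leaf replicate 3 was the highest of its group for all 3 genes of the run, with 16 CPM in the second gene (2417281 to 2422255) against 9.04 and 5.77, and 21.6 CPM in the third (2424761 to 2426075) against 12.9 and 10.9. Without that library the run no longer met the rule. It was also lost without WT apex replicate 1 or replicate 3.

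Leaf run 17, on chromosome 5 from 652750 to 656641, was chosen after its values were seen, because its 3 genes had spans alike within 1.11 times, the closest of any run. The first gene (652750 to 653588) had 114, 186 and 99.4 CPM in pep1-1 apex and 700, 710 and 718 in leaf. The second (654240 to 655098) had 43.4, 50.2 and 23.8 CPM in apex and 198, 214 and 179 in leaf. The third (655710 to 656641) had 0.125, 0.175 and 0.0915 CPM in apex and 8.82, 11.6 and 8.61 in leaf. Their pep1-1 fold changes were -1.85, -1.77 and -5.61 on the log2 scale (edgeR adjusted p = 9.08e-05, 0.000206 and 6.28e-07). So the first and second genes were alike in how far they favoured leaf, while the third, with low levels in apex, favoured it further.

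**Figure D3:**
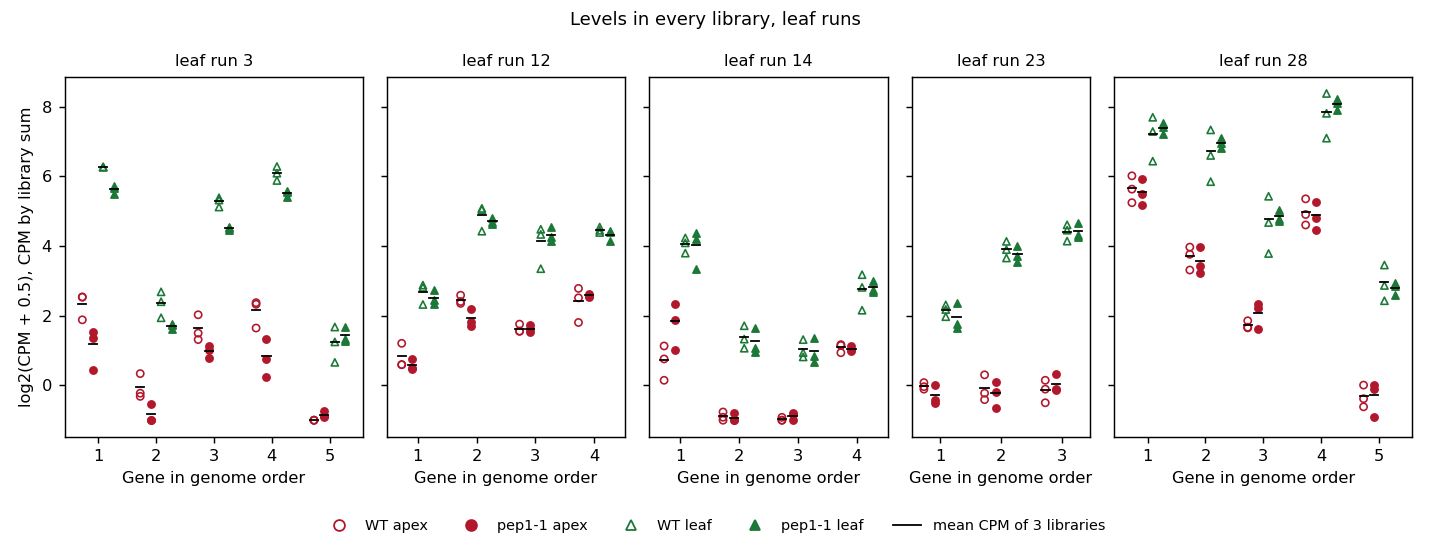
Levels of the genes of the 5 leaf runs with most genes in every library, as log2(CPM + 0.5) by library sum, with the symbols of the apex plot and bars at the mean CPM of 3 libraries. In leaf run 28 the WT leaf triangles of all 5 genes are spread in the same order, and in leaf run 3 the first 4 genes have lower pep1-1 than WT means in leaf.

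Leaving out 1 WT library at a time took 2 to 7 of the 36 runs below the limit. Without WT apex replicate 1, WT apex replicate 3 or WT leaf replicate 2, 29 runs with all genes past the limit remained, and 34 remained without WT apex replicate 2. In each of these cases 108 to 113 of the 115 members stayed past it.

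The genotypes were then compared within each organ, in tests that shared the WT libraries with the rule. In leaf, edgeR's quasi-likelihood test called 2 of the 112 members tested at an adjusted p under 0.05, against 0.414% of 22936 genes. An unadjusted p under 0.05 was found for 8.93% of the members tested and 9.74% of all genes. Both were in leaf run 3 and lower in pep1-1: the first gene, at 49.2 ± 3.92 CPM in pep1-1 leaf against 76.7 ± 0.125 in WT leaf (SD, n = 3 libraries), had a log2 fold change of -0.61 ± 0.08 (SE, edgeR adjusted p = 0.0151). The third gene, at 22.3 ± 0.528 against 38.4 ± 3.66 CPM (SD, n = 3 libraries), had -0.75 ± 0.07 (SE, edgeR adjusted p = 0.00281). Between them the second gene had -0.75 ± 0.21 (edgeR adjusted p = 0.25), and the fourth, just after, had -0.55 ± 0.10 (edgeR adjusted p = 0.0598). The fifth gene had 0.24 ± 0.30 (edgeR adjusted p = 0.844). The call of the first gene was lost without WT leaf replicate 3 (edgeR adjusted p = 0.0807) or pep1-1 leaf replicate 3 (0.0540). Without WT leaf replicate 1, 4 of 113 members tested were called, and 445 of 22992 genes.

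In apex none of the 104 members tested passed by edgeR, against 0.235% of 22157 genes. An unadjusted p under 0.05 was found for 20 members, or 19.2%, against 10.7% of all genes tested, and all 20 were leaf members (22.7% of those tested). DESeq2's Wald test called 3 members, and 412 of 22155 genes. By limma-voom no member was called, and 39 of 22157 genes were. A fit of all 12 libraries by edgeR called 3 of 115 members, and 320 of 23517 genes. The smallest adjusted p values by edgeR were 0.148 and above. In leaf run 3 the apex fold changes of the first 4 genes were -1.34, -3.05, -0.76 and -1.59 on the log2 scale, with edgeR adjusted p from 0.177 to 0.323. The first gene and the fourth were among the 3 that DESeq2 called, with adjusted p of 0.0164 and 0.00471. The values of these genes were low in apex, at 5.32 CPM or less in WT.

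Leaf members were more often lower than higher in pep1-1, in both organs. In leaf 64 of 99 tested were lower (64.6%), against 49.9% of all genes, with a median log2 fold change of -0.08. In apex 62 of 88 were lower (70.5%), against 51.7% of all genes, with a median of -0.18. Among apex members 2 of 13 tested were lower in leaf and 6 of 16 in apex. Nothing is read from these balances, because the members were chosen on the same WT libraries. For leaf members that choice tends towards lower pep1-1 values in leaf but higher ones in apex, the opposite of the apex balance. What lies behind the apex balance was not tested. For the difference of the organ effects between genotypes, edgeR's interaction test on all 12 libraries called 0 of 115 members, where it called 0% of 23517 genes. An unadjusted p under 0.05 was found for 14 members, or 12.2%, against 4.21% of all genes, and these values too share the WT libraries with the rule. DESeq2 and limma-voom also called 0 members, where they called 7 of 23516 and 0 of 23517 genes. A test that called no member does not show that the organ preferences were alike in WT and pep1-1.

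**Figure D4:**
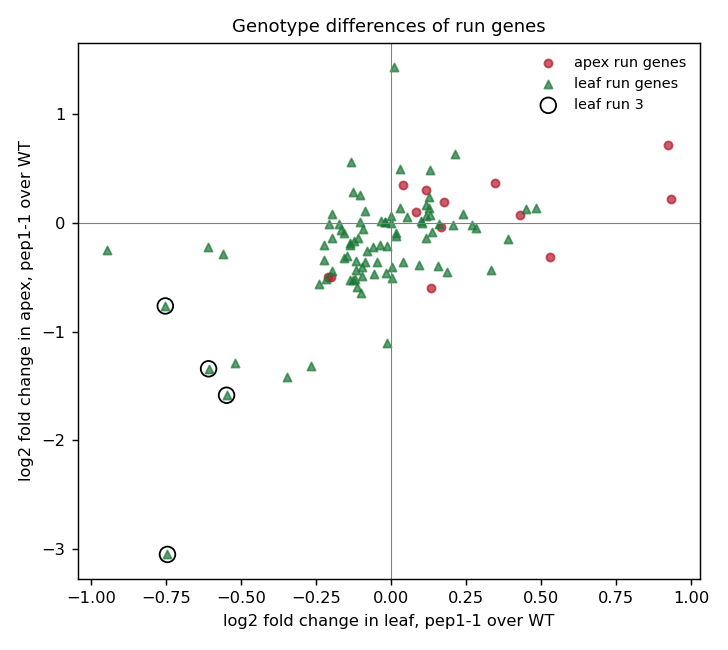
Log2 fold changes of pep1-1 over WT from edgeR in leaf (horizontal axis) and apex (vertical axis) for the 101 run genes tested in both organs, with red circles for apex runs and green triangles for leaf runs. Open black rings mark the 4 genes of leaf run 3 that were tested in both organs, which all lie below 0 on both axes.

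To see how far neighbours share a preference beyond the runs, the share of next genes past the same limit was counted in pep1-1, whose libraries did not choose the runs. All counts here are descriptions, since genes of one library are not independent and the intervals, exact 95% binomial ones, cover counting error only. Among genes with R of 1.5 or more in pep1-1, the next gene within 10 kb was past the same limit in 74 of 747 cases, or 9.91% (7.86 to 12.3), against 3.82% of all genes. Among genes with R of -1.5 or less it was so in 304 of 2020 cases, or 15.05% (13.5 to 16.7), against 10.1% of all genes. With TMM factors the shares were 13.1% against 7.19% for apex and 10.6% against 4.83% for leaf. Under both scalings, therefore, a neighbour past the same limit was more frequent than the genome share, while the size of the share moved with the scaling. The genome share counts all genes with 10 or more reads, and genes with few reads do not reach the limits. In WT, the genes past them outside runs had at least 93 reads for apex and 139 for leaf.

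By distance in gene order, the share was highest for the next gene. In apex the share was 9.12% for the next gene at any gap, 5.15% for the second, 5.30% for the third, 5.49% at 50 places and 3.43% at 100 places. In leaf it was 14.8% for the next gene, 13.4% for the second, 10.9% for the third, 11.1% at 50 places and 11.7% at 100 places. By library sum these leaf shares all lay above the 10.1% of all genes. The intervals for the third gene (9.69 to 12.1) and at 50 places (9.87 to 12.4) include 10.1%. With TMM factors the leaf share was 9.91% for the next gene and 8.13% for the second, against 4.83% of all genes. It was 4.96% for the third, 4.25% at 5 places, 6.40% at 50 places and 5.21% at 100 places. How far an excess reaches beyond close neighbours was therefore not settled. By physical gap, the share for apex genes was 12.8% (9.14 to 17.2) at gaps up to 1 kb and 5.48% (2.40 to 10.5) at gaps from 5 to 10 kb, with intervals that overlap. For leaf genes the share was 14.6% (12.3 to 17.2) up to 1 kb and 15.5% (12.2 to 19.3) from 5 to 10 kb. At gaps over 10 kb, beyond the limit of the rule, it was 14.1% (11.3 to 17.2) for leaf genes. The leaf share thus showed no fall with gap. For apex genes it was 6.12% (3.20 to 10.5) at gaps over 10 kb.

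**Figure D5:**
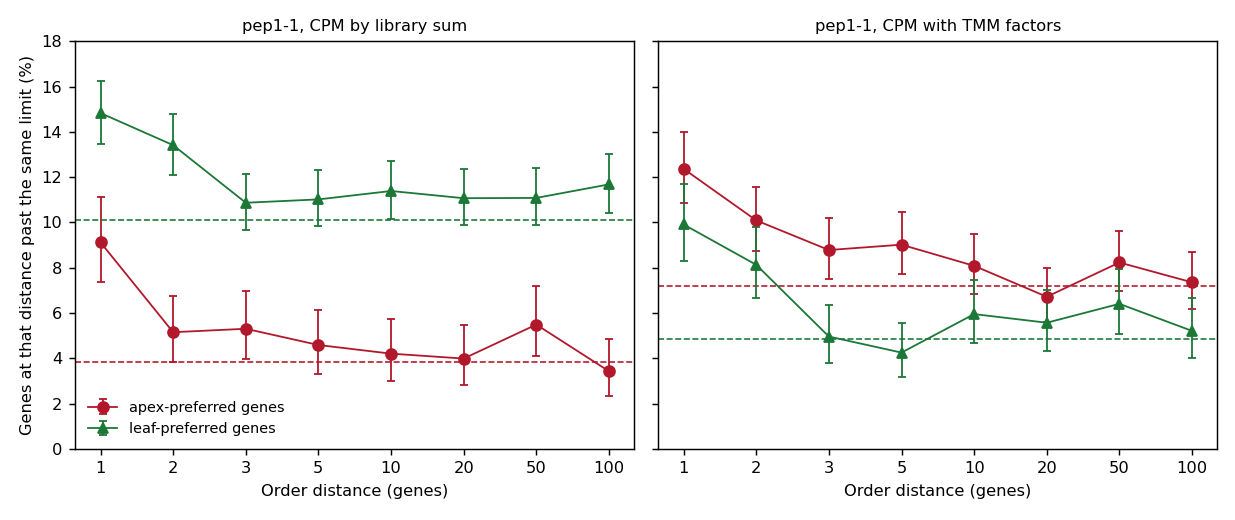
Share of genes past the same limit at a given distance in gene order from a gene past the apex limit (red circles) or leaf limit (green triangles) in pep1-1, with CPM by library sum (left) and with TMM factors (right). Bars are exact 95% binomial intervals, dashed lines are the shares of all genes, and in both panels the share is highest at distance 1.

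In leaf libraries, neighbours within leaf runs also often had their highest level in the same replicate, a measure chosen after the values were seen. The pep1-1 libraries, which the rule did not use, come first. Counted with TMM factors over pairs of adjacent members, the highest of the 3 pep1-1 leaf libraries was the same one in 39 of 68 pairs within leaf runs (57.4%). It was the same in 40.3% of pairs of members from different leaf runs and in 35.5% of the other adjacent pairs within 10 kb. In pep1-1 apex the corresponding shares were 36.4%, 35.4% and 36.0%. In the WT libraries they were 52.9%, 34.3% and 37.8% in leaf and 41.5%, 33.8% and 35.1% in apex. The WT shares are a description, since 1 high or low library can decide whether a run meets the rule, as in leaf runs 20 and 28. Pairs within apex runs were few: in pep1-1 apex the highest library was shared in 5 of 11 pairs, against 57.8% of pairs from different apex runs. Adjacent pairs of one run share a gene, pairs in one library share its depth and its plants, and no test was made.

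What the genes of a run share in structure could be read only from positions. Neighbours had spans within 1.2 times of each other in 15 of 79 pairs inside runs (19.0%), against 18.5% of the other adjacent pairs within 10 kb. Within apex runs this was so in 6 of 11 pairs and within leaf runs in 9 of 68. Whether run genes are near-identical copies, whose reads a counting step can split, was not tested, as no sequence was used here. The sources do not say whether counting used strand. Some run neighbours nearly touch, such as the second and the third gene of apex run 1 with 4 bp between them and the first and second of leaf run 25 with 1 bp, and reads that extend from one gene into the next were not tested for either. The median gap inside runs was 1964 bp, against 1215 bp in the other adjacent pairs within 10 kb. For 7 members the files also list other transcripts, 8 in all, whose read totals were the same as that of the transcript kept or close to it, so they give no separate reading.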

How the data were processed

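Poly(A) RNA libraries (TruSeq, 12 PCR cycles) were made from WT and pep1-1 apices and leaves, per the labels' protocols. The submitters' processing notes name TopHat, bedtools and DESeq2 1.10.0 without parameters, and the genome build of the coordinates is not given in the sources used here. The deposited values are raw counts per transcript for 39814 transcripts. For each of 35465 genes the transcript with most reads over the 12 libraries was kept, as 3593 genes have several.

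CPM were computed with library sums of 19746210 to 43695184 reads, and TMM factors were 0.784 to 0.865 in apex and 1.17 to 1.27 in leaf. Fold changes and adjusted p-values came from edgeR 4.0.16 in R 4.3.3 (TMM, filterByExpr, robust quasi-likelihood F test, Benjamini-Hochberg over all genes tested, threshold 0.05), with each standard error computed by dividing the absolute log2 fold change by the root of the F statistic. DESeq2 1.42.0, limma-voom 3.58.1, other limits, leaving out each library and a replicate block were alternatives. The run finder and the edgeR fit were tested on simulated data. Counting intervals cover counting error only, since PCR reads without molecular identifiers are not independent molecules.

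The members and lists were chosen with earlier results of these data known. Runs described gene by gene are the 5 apex runs, the 5 leaf runs with most genes (ties by median absolute R), runs with a genotype call, and the members nearest the limits. Leaf run 20 was added because a member missed the call, and leaf run 17 for its similar spans, both after their values were seen. Identifiers are printed for the 2 largest pep1-1 fold changes in each direction within the 5 apex runs and those 5 leaf runs, and other genes are given by position. No comparison with a shuffled gene order was made.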

Additional observations from a re-analysis of the deposited data

How the results depend on the processing

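The number of runs depended on the rule's settings. WT apex runs, 5 in the report, were 16 with TMM factors, 21 with a limit of 1, 2 with a limit of 2, 1 with 4 or more genes, 11 with a pseudocount of 0.1 and 2 with one of 1. WT leaf runs, 31 in the report, were 7, 207, 6, 4, 53 and 18 under those settings in the same order, and 19 with gaps of 5 kb or less. Leaving out 1 library gave 4 to 7 apex runs and 26 to 32 leaf runs. Runs whose genes all stayed past the limit in pep1-1 were 28, but 11 with TMM factors, and 26 to 31 without 1 library. The share of adjacent genes past the same limit in pep1-1 moved from 9.91% to 13.1% (apex) and from 15.05% to 10.6% (leaf) with TMM factors. Without 1 library it was 8.66% to 10.1% and 14.2% to 15.9%. The cause of these shifts, beyond the settings themselves, was not tested.

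The organ test in pep1-1 called 113 to 114 members under every alternative run. Among all genes, in both directions together, the fewest called were 12115 of 23003, at an adjusted p under 0.01. The most were 16018 of 23517, with all 12 libraries in one fit. Leaf genotype calls among members were 1 at an adjusted p under 0.01 and 1 with all 12 libraries in one fit. They were 3 by DESeq2, 3 without the filter on low counts and 1 to 4 without 1 library. Among all genes the calls were, in the same order, 34 of 22936, 95 of 23517, 322 of 22935, 157 of 28519 and 39 to 445. Apex genotype calls, 0 by edgeR, were 3 by DESeq2, 3 with all 12 libraries and 6 with a replicate block. Among all genes these settings called 412 of 22155, 320 of 23517 and 600 of 22157. Without 1 library, apex calls and interaction calls among members were 0, and among all genes they were 15 to 140 and 0 to 1.

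Same-numbered libraries did not pair throughout. Deviations of pep1-1 leaf and apex correlated at 0.15, -0.10 and -0.04, and those of WT and pep1-1 leaf at 0.03, 0.29 and -0.17. Those of WT and pep1-1 apex correlated at 0.40, -0.02 and 0.41, so replicates 1 and 3 went together there and replicate 2 did not. Not every library correlated best with its own number. With the replicate block the calls among members were 114 (organ), 2 (leaf), 6 (apex) and 0 (interaction). Among all genes they were 14493 of 23003, 54 of 22936, 600 of 22157 and 0 of 23517. With 3 libraries per group, small differences could not be detected, and genes with few reads rest on single libraries in places.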
